A study of Mus musculus with 12 samples.

Results

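The data described here are the transcript levels of 10 genes of the prostaglandin and leukotriene pathway in 4T1 mammary tumours, out of 35944 mouse genes to which the deposited transcripts could be assigned. The genes were taken as a list by symbol: Pla2g4a, Ptgs1, Ptgs2, Ptges, Tbxas1, Ptger2, Ptger4, Hpgd, Alox5 and Alox5ap. RNA-Seq had been performed on 12 tumours, each grown from 100000 4T1 cells placed under the skin of a female BALB/c mouse aged 6 to 8 weeks. 4T1 is a mouse mammary carcinoma line that grows in this immunocompetent strain. From day 5, each mouse received 3 µg of extracellular vesicles (EVs) beside the tumour every 2 days, and the tumour was taken on day 21. The EVs came from MS-1, a mouse endothelial cell line, and had been electroporated with a mimic of 1 of 3 mouse miRNAs (miR-183-5p, miR-142-5p or miR-222-3p) or with that of the nematode miRNA cel-miR-67 (ctrl). Each of the 4 groups held 3 tumours, and the ctrl tumours had received loaded EVs as well, so no tumour without EVs entered the comparisons. The RNA came from whole tumours, and the libraries held 20285968 to 27021401 estimated reads each. In such samples, fewer cells of a type and less RNA per cell cannot be told apart.

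Prostanoids and leukotrienes are short-lived lipid signals made from arachidonic acid, which cytosolic phospholipase A2 releases from membranes. The cyclooxygenases Ptgs1 (COX-1) and Ptgs2 (COX-2) turn it into prostaglandin H2, from which Ptges makes prostaglandin E2 (PGE2) and Tbxas1 makes thromboxane A2. PGE2 acts through receptors that include Ptger2 (EP2) and Ptger4 (EP4), and Hpgd starts its breakdown. On the other branch Alox5, helped by its activating protein Alox5ap, starts leukotriene synthesis, chiefly in myeloid cells. In tumours, the COX-2 and PGE2 axis is known for its effects on macrophages, neutrophils and T cells.

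The mimic loaded into the EVs defines the groups, so the mature miRNA sequences are shown first, from RefSeq on GRCm38.p6, with the seed (bases 2 to 8) in capitals. The study's listed miR-222-3p mimic ends before the last bases of the RefSeq form. miR-142-5p (mmu-miR-142a-5p) lies at chr11:87756867-87756887 on the plus strand, miR-183-5p at chr6:30169711-30169732 on the minus strand and miR-222-3p at chrX:19146901-19146923 on the minus strand.
miR-142-5p: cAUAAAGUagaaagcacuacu
miR-183-5p: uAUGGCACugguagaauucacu
miR-222-3p: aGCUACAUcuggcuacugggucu
The 3 seeds differed, so the members were searched for each of them separately. The 3′ UTR of the most abundant protein-coding transcript of each member (GENCODE M21, GRCm38) was searched for the reverse complement of bases 2 to 8 (7mer-m8), of bases 2 to 7 followed by A (7mer-A1), or both (8mer). A match is a description of the letters and not a target site.

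For miR-142-5p, 5 of the 10 members held a match, whereas 21.0% of the 14669 tested genes with a 3′ UTR sequence held one. Longer UTRs offer more places for a match, and, for this and the other miRNAs, the shares were not matched for length. The UTRs of Ptges, Ptgs2 and Ptger2 had 3106, 2445 and 1825 bases, and those of Ptgs1 and Alox5 had 921 and 642. The median of tested genes was 953. The members' windows of up to 30 bases are shown because 4 of these 5 genes are enzymes of the pathway and the fifth is a PGE2 receptor. Capitals mark the match, written on the transcript strand.
Ptgs1 (8mer): ataggcttaaaACTTTATAttatagggtag
Ptger2 (7mer-m8): agatgaaacagACTTTATgaggtagtttgg
Alox5 (7mer-m8): gggtcaggggtACTTTATtctatttatgct
Ptgs2 (7mer-A1): aattttgatatCTTTATActtgaatttcag
Ptges (7mer-A1): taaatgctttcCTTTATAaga
The match of Ptgs1 was at chr2:36251631-36251638 (plus strand), that of Ptger2 at chr14:45002109-45002115 (plus) and that of Alox5 at chr6:116410372-116410378 (minus). The match of Ptgs2 was at chr1:150106023-150106029 (plus), and that of Ptges at chr2:30889474-30889480 (minus), within the last bases of its UTR. For the full 8mer, the share among tested genes was 4.73%.

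For miR-183-5p, 2 members held a match, against 14.6% of the tested genes. They were Ptges and Hpgd, the enzymes that make and break down PGE2.
Ptges (7mer-m8): tcagtacctgtGTGCCATggtatgaagttg
Hpgd (7mer-A1): tttcaatgaaaTGCCATAcgatgaaaccta
These matches were at chr2:30890205-30890211 (minus strand) and chr8:56320283-56320289 (plus strand). For miR-222-3p, 0 members held a match, while 15.8% of the tested genes did.

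Levels between genes are given in TPM, a measure scaled for transcript length and library size, summed over the transcripts of a gene. By median level, the tested members ran from Ptgs1, which was above 86.4% of all tested genes, to Ptger2, which was above 18.0% of them. Of the 10 members, 6 had a median of at least 10 TPM over the 12 tumours. These were Ptgs1 (58.0 to 90.6 TPM), Ptges (64.0 to 87.1 TPM), Alox5ap (43.9 to 73.6 TPM), Pla2g4a (32.6 to 54.4 TPM), Ptgs2 (18.1 to 61.8 TPM) and Tbxas1 (13.0 to 34.7 TPM). Below them were Alox5 (1.18 to 4.32 TPM), Ptger4 (1.33 to 4.01 TPM) and Ptger2 (1.02 to 2.12 TPM). The ranges of neighbours in this order overlapped, whereas the lowest Tbxas1 value was above the highest Alox5 value. Hpgd was close to 0.

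**Figure D1:**
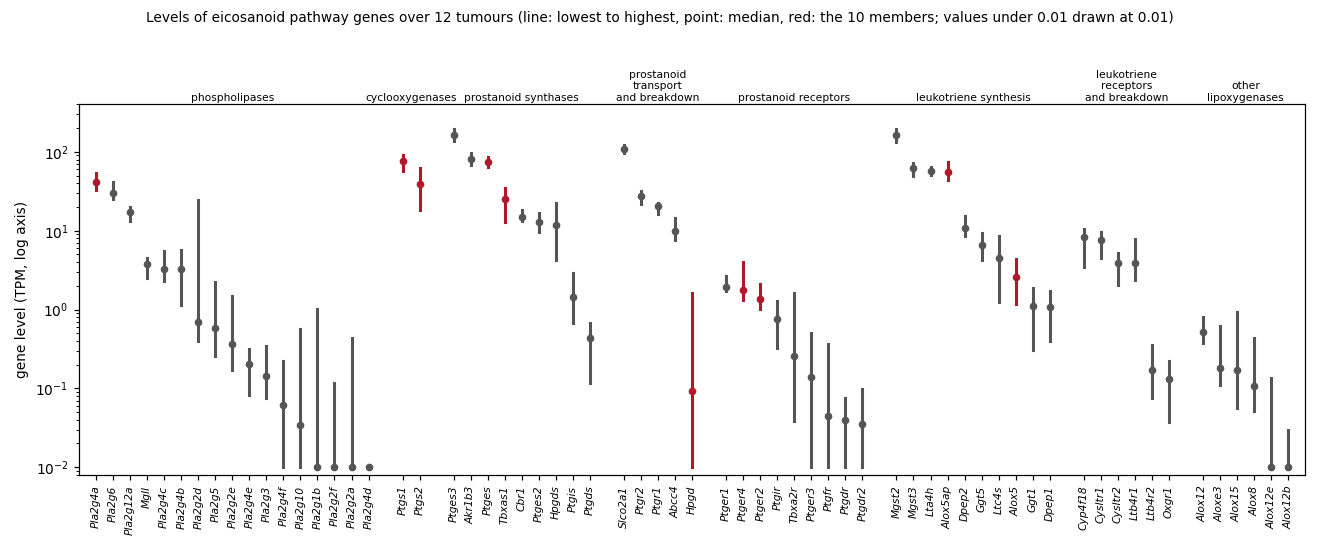
Gene levels (TPM, log axis) of the 10 members in red and of 54 other eicosanoid pathway genes in grey, grouped by step. Lines run from the lowest to the highest of the 12 tumours and points mark the median. Of the synthesis steps only Ptges3 and Mgst2 had medians above 100 TPM, as did the uptake carrier Slco2a1, while the receptors lay below 10 TPM.

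A list of 54 further genes was set beside the members, of which 14 had a median of at least 10 TPM and 20 never reached 1 TPM. Among the enzymes that can make PGE2, the cytosolic synthase Ptges3 had 137 to 197 TPM and the membrane-associated Ptges2 had 9.56 to 16.6 TPM. Ptges3 is also a co-chaperone, so its level is not specific to prostaglandins. Hpgds, the haematopoietic prostaglandin D2 synthase, had 4.30 to 22.4 TPM, and Ptgis, which makes prostacyclin, had 0.667 to 2.87 TPM. The prostaglandin uptake carrier Slco2a1 had 96.5 to 123 TPM. Of the prostanoid receptors, Ptger1 had 1.71 to 2.65 TPM, whereas the prostaglandin D2 receptor Ptgdr never exceeded 0.0756 TPM. On the leukotriene branch, Lta4h, which makes leukotriene B4, had 51.2 to 63.6 TPM, and Ltc4s, which makes leukotriene C4, had 1.24 to 8.50 TPM.

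Part of several members' levels came from annotated transcripts that encode no protein. Protein-coding transcripts held 100% of the Ptgs2 level in all 12 tumours and at least 96.1% of that of Pla2g4a. They held between 48.9% and 85.4% of the Ptgs1 level, between 53.1% and 66.4% of that of Ptges and between 60.8% and 79.3% of that of Tbxas1. For Alox5 the share ran from 16.6% in ctrl tumour 1 to 93.1% in ctrl tumour 3. The ctrl tumour with the highest Alox5 level (4.32 TPM) thus had 0.718 TPM in coding transcripts, while miR-222-3p tumour 2, the lowest at gene level (1.18 TPM), had 0.677 TPM in them. Salmon divides reads among overlapping transcripts by estimation, so these shares are estimates.

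**Figure D2:**
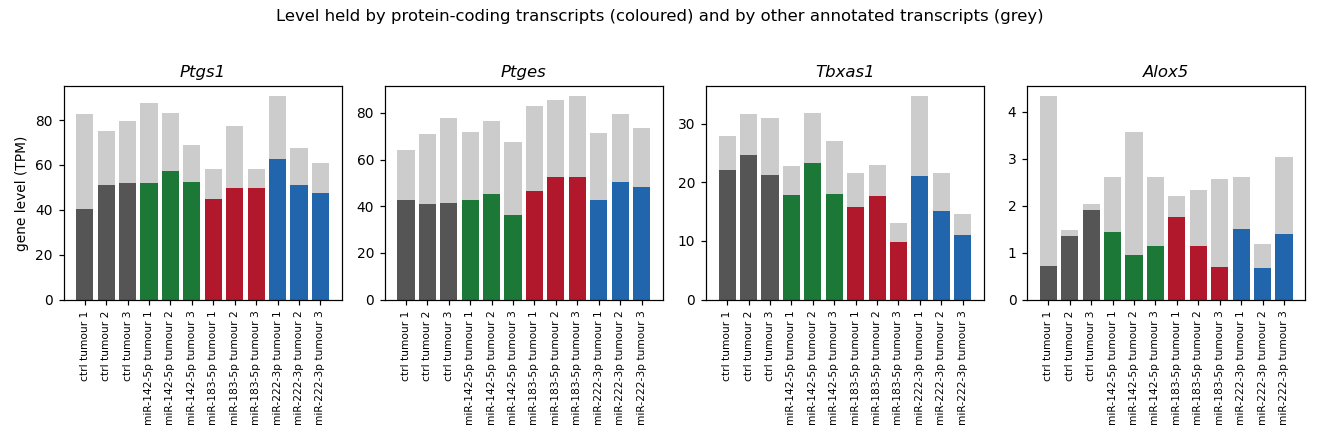
Level of Ptgs1, Ptges, Tbxas1 and Alox5 (TPM) in each of the 12 tumours, split into protein-coding transcripts (coloured by group) and other annotated transcripts (grey). The coloured part of Alox5 ranges from 16.6% to 93.1% of the bar, whereas that of Ptges stays between 53.1% and 66.4%.

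Comparisons between groups were made on normalised counts with DESeq2 over all tested genes, and a gene was called at a Benjamini-Hochberg adjusted p below 0.05. Of the 10 members, 9 passed the count filter (at least 10 reads in at least 3 tumours), and Hpgd did not. In miR-142-5p versus ctrl, 0 of the 9 members were called, as were 0.00648% of all tested genes. In miR-183-5p versus ctrl, 0 members were called, and 0% of all genes. In miR-222-3p versus ctrl, 0 members were called, against 0.0259% of all genes. Between the loaded groups, 0 members were called in miR-183-5p versus miR-142-5p (all genes 0.0518%), in miR-222-3p versus miR-142-5p (0.0389%) or in miR-222-3p versus miR-183-5p (0.0324%). The likelihood-ratio test across the 4 groups also called 0 members (0.0583% of all genes). The edgeR quasi-likelihood test and limma called 0 members in these comparisons as well.

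At an unadjusted p below 0.05, 2 members differed in miR-142-5p versus ctrl (3.58% of all genes did), 2 in miR-183-5p versus ctrl (3.21%) and 0 in miR-222-3p versus ctrl (2.31%). In miR-183-5p versus miR-142-5p, 4 members did (7.94% of all genes). In miR-222-3p versus miR-142-5p, 1 member did (3.62%), and in miR-222-3p versus miR-183-5p none of the 9 members did (3.25%). Across the 4 groups, 4 members did (4.75%), namely Ptger2, Ptgs2, Ptger4 and Ptges. The median absolute log2 fold change of the members was 0.17, 0.27 and 0.18 in the 3 comparisons with ctrl, beside 0.12, 0.12 and 0.11 over all tested genes. In miR-183-5p versus miR-142-5p it was 0.30, beside 0.15. These comparisons share tumours, so their counts are not independent.

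**Figure D3:**
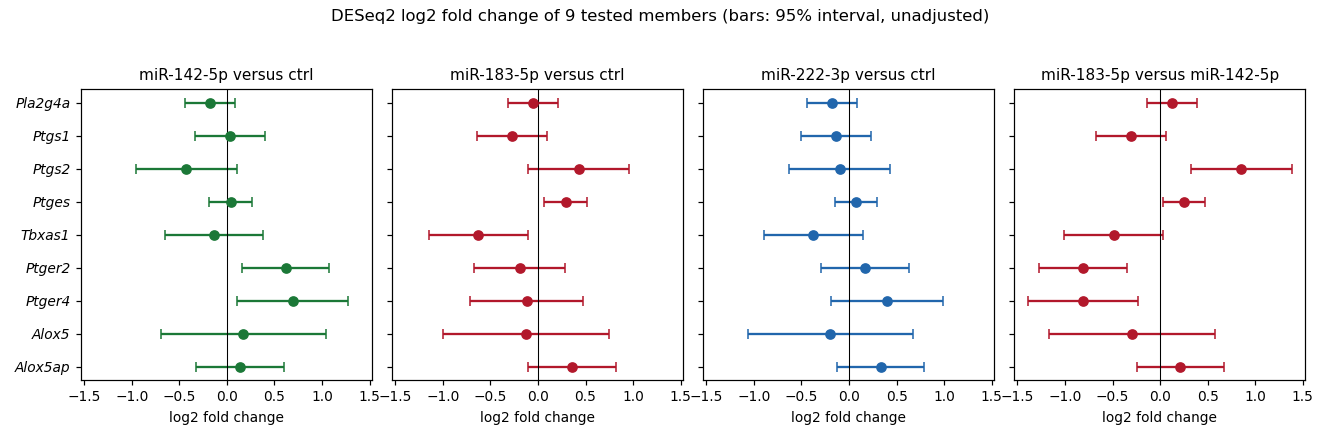
DESeq2 log2 fold change with its 95% interval (not adjusted for multiple testing) for the 9 tested members in 4 comparisons, 1 per panel. The intervals of Ptger2, Ptger4, Ptges and Ptgs2 exclude 0 in miR-183-5p versus miR-142-5p, yet no member passes the adjusted threshold in any panel.

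Pla2g4a (chr1:149829618-149961290, minus strand, GRCm38), the cytosolic phospholipase A2 that supplies both branches, varied little. Its normalised counts were 1771, 1779 and 2220 in the ctrl tumours, 1797, 1581 and 1707 with miR-142-5p, 1868, 1702 and 1993 with miR-183-5p, and 1844, 1757 and 1490 with miR-222-3p. The groups overlapped, and ctrl tumour 3 was the highest. The log2 fold changes against ctrl were -0.18 (SE 0.13), -0.05 (SE 0.13) and -0.18 (SE 0.13), given, here and for the other members, with miR-142-5p first, then miR-183-5p, then miR-222-3p. The 95% intervals ran from -0.45 to 0.08, from -0.32 to 0.21 and from -0.44 to 0.08. Beside it, 16 other genes of this step were listed, phospholipases and the monoacylglycerol lipase Mgll, of which 9 passed the count filter and none of these 9 was called (DESeq2). Pla2g6, a calcium-independent phospholipase A2, was the most abundant of them (25.1 to 41.3 TPM).

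Neither cyclooxygenase was called in any comparison. For Ptgs2 (chr1:150100031-150108227, plus strand), the inducible cyclooxygenase, normalised counts in ctrl were 2644, 2098 and 3527, while with miR-142-5p they were 2895, 1297 and 1967. They were 4339, 3313 and 3481 with miR-183-5p and 2619, 2033 and 3083 with miR-222-3p. All miR-183-5p tumours were above all miR-142-5p and all miR-222-3p tumours, but ctrl tumour 3 lay among them.
Between miR-183-5p and miR-142-5p, Ptgs2 was 1.81-fold higher (log2 0.85, SE 0.27, 95% interval 0.32 to 1.39), with an adjusted p of 0.179. Against ctrl, the log2 fold changes were -0.43 (SE 0.27) with miR-142-5p, 0.43 (SE 0.27) with miR-183-5p and -0.10 (SE 0.27) with miR-222-3p. The difference between miR-183-5p and miR-142-5p depended on single tumours. Without miR-142-5p tumour 1 it was 1.18 with an adjusted p of 0.00103, and the test across the 4 groups then gave an adjusted p of 0.0151. Calls over all genes rose with this omission too, from 8 to 414 in this comparison and from 9 to 240 across the 4 groups. Without miR-142-5p tumour 2, the lowest of all tumours, the Ptgs2 difference was 0.61 with an adjusted p of 0.647.

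Ptgs1 (chr2:36230426-36252272, plus strand), the constitutive cyclooxygenase, had normalised counts of 3439, 2796 and 2856 in ctrl, 3601, 3225 and 2461 with miR-142-5p, 2205, 3055 and 2262 with miR-183-5p, and 3243, 2580.1 and 2437 with miR-222-3p. The groups overlapped. The log2 fold changes against ctrl were 0.03, -0.27 and -0.14 (each SE 0.19). With only protein-coding transcripts summed, the last 2 were 0.02 and 0.17, so their sign depended on which transcripts were counted.
On coding transcripts, the Ptgs2 level was between 0.317 and 1.38 times that of Ptgs1 in the same tumour. This ratio was 0.911 to 1.38 in the miR-183-5p tumours, 0.597 to 1.02 in ctrl, 0.565 to 0.871 with miR-222-3p and 0.317 to 0.737 with miR-142-5p. The miR-183-5p tumours did not overlap with the miR-142-5p or the miR-222-3p tumours in this ratio, which was not tested.

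**Figure D4:**
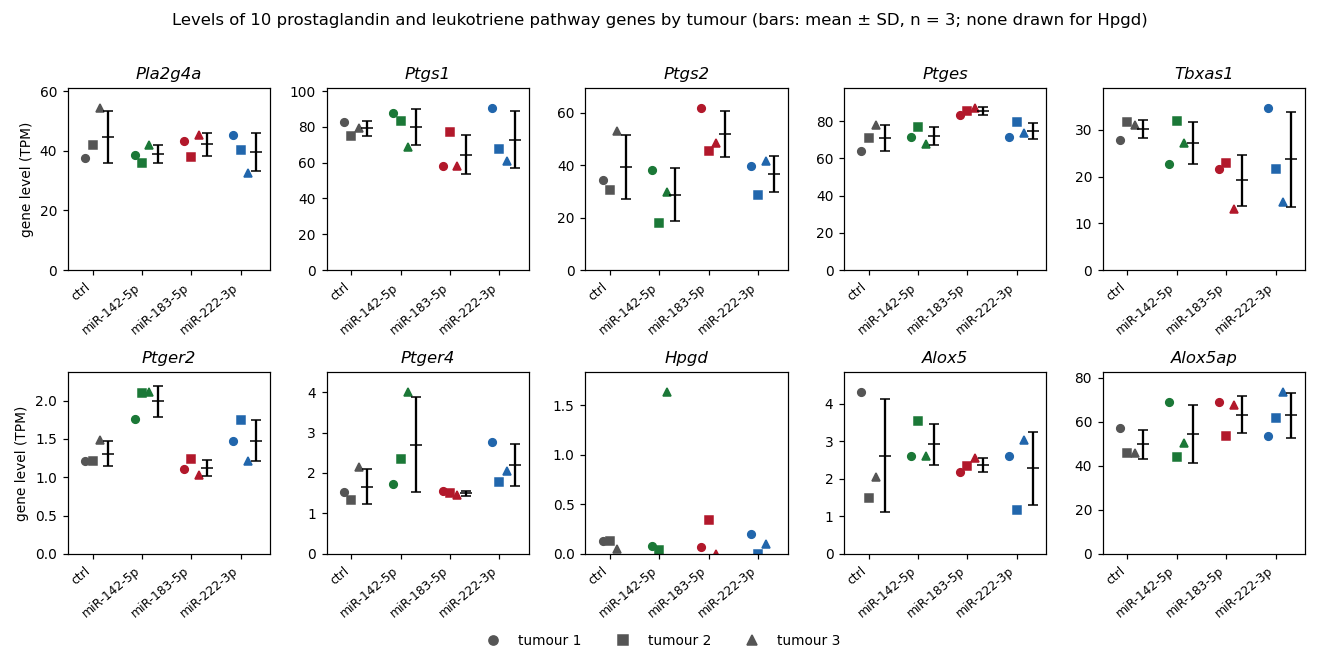
Level of each member (TPM, summed per gene) in the 12 tumours, with markers for the tumour number and bars for mean ± SD of 3 tumours (none for Hpgd). Ptgs2 and Ptges sit highest in the miR-183-5p tumours on average, and Ptger2 in the miR-142-5p tumours. In Ptger4 and Hpgd a single miR-142-5p tumour lies far above the rest.

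Neither terminal synthase was called in any comparison. Ptges (chr2:30889471-30929863, minus strand), the inducible PGE2 synthase, had normalised counts of 2552, 2549 and 2696 in ctrl and 3034, 3254 and 3248 with miR-183-5p, which did not overlap. The miR-142-5p tumours had 2828, 2859 and 2324 and the miR-222-3p tumours 2454, 2921 and 2841, all below the miR-183-5p tumours. The difference between miR-183-5p and ctrl was small, at 1.22-fold (log2 0.29, SE 0.11, 95% interval 0.07 to 0.51, unadjusted p of 0.0104), and was not called. Left-out tumours moved it between 0.27 and 0.32.
Tbxas1 (chr6:38875404-39084585, plus strand), the thromboxane A2 synthase, had 1028, 1048 and 989.7 normalised counts in ctrl and 731, 807 and 448 with miR-183-5p, again without overlap. The miR-142-5p tumours had 831, 1097 and 862, and the miR-222-3p tumours had 1104, 737 and 523, the widest spread of the 4 groups. The log2 fold change in miR-183-5p versus ctrl was -0.63 (SE 0.26, 95% interval -1.15 to -0.11, unadjusted p of 0.0180), a level of 0.648 times ctrl, and was not called. Without miR-183-5p tumour 3 it was -0.41.
In that comparison, groups did not overlap for 2 members (9.2% of all tested genes). These were Ptges, higher (4.44% of all genes), and Tbxas1, lower (4.77%). The coding level of Ptges was 1.65 to 1.95 times that of Tbxas1 in ctrl and 2.93 to 5.31 times with miR-183-5p. With miR-222-3p it was 2.03 to 4.40 times, and with miR-142-5p it was 1.95 to 2.38 times. This ratio was not tested, and it restates the levels of the same 2 members.

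Neither PGE2 receptor was called, and both had their highest group mean with miR-142-5p, which for Ptger4 rested on 1 tumour. Ptger2 (chr14:44988195-45003820, plus strand) had normalised counts of 69.8, 62.5 and 74.1 in ctrl, 99.6, 112 and 105 with miR-142-5p, 58.0, 67.4 and 54.9 with miR-183-5p, and 72.8, 92.2 and 67.4 with miR-222-3p. Every miR-142-5p tumour was above the tumours of the other 3 groups. It was 1.53-fold higher than in ctrl (log2 0.62, SE 0.23, 95% interval 0.16 to 1.08, adjusted p of 0.995). In miR-183-5p versus miR-142-5p the log2 fold change was -0.81 (SE 0.23, 95% interval -1.27 to -0.35), with an adjusted p of 0.121. The test across the 4 groups gave Ptger2 the lowest adjusted p of the members, 0.344. Its log2 fold change against ctrl with miR-142-5p stayed between 0.55 and 0.68 when any tumour was left out. Ptger2 was the only member without overlap in miR-142-5p versus ctrl, where 6.08% of all tested genes had none (3.13% higher, 2.94% lower). At 112 normalised counts or fewer, its counting error was larger than that of the more abundant enzymes.

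Ptger4 (chr15:5206661-5244187, minus strand) had 85.4, 67.0 and 104 normalised counts in ctrl, 96.5, 123 and 194 with miR-142-5p, 80.5, 80.0 and 75.8 with miR-183-5p, and 134, 92.0 and 112 with miR-222-3p. The miR-183-5p tumours were close together and below all miR-142-5p and all miR-222-3p tumours, while miR-142-5p tumour 3 was the highest. In miR-142-5p versus ctrl the log2 fold change was 0.69 (SE 0.30, unadjusted p of 0.0197), and without miR-142-5p tumour 3 it was 0.36. In miR-183-5p versus miR-142-5p it was -0.81 (SE 0.30, adjusted p of 0.324). In miR-222-3p versus miR-142-5p it reached 0.042, a turned sign, without miR-142-5p tumour 3. The difference between miR-183-5p and miR-142-5p was -0.48 without miR-142-5p tumour 3, and -1.01 with an adjusted p of 0.0353 without miR-142-5p tumour 1. The fit without tumour 1 called 414 genes in this comparison, beside 8 with all tumours.
Between miR-183-5p and miR-142-5p, 5 of the 9 members had groups that did not overlap, beside 12.4% of all tested genes. Ptgs2 and Ptges were higher in the miR-183-5p tumours (5.92% of all genes), and Tbxas1, Ptger2 and Ptger4 were lower (6.44%). In miR-222-3p versus miR-183-5p, 4 members did not overlap (9.07% of all genes), with Ptgs2 and Ptges lower (4.6%) and both receptors higher (4.47%) in the miR-222-3p tumours. In miR-222-3p versus miR-142-5p, Ptger2 alone did not overlap, being lower (6.23% of all genes, 3.31% higher and 2.92% lower), and in miR-222-3p versus ctrl none of the 9 members was free of overlap (5.52%, 2.95% higher and 2.57% lower).

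Hpgd (chr8:56294585-56321043, plus strand), the dehydrogenase that inactivates PGE2, was hardly detected. It had between 0 and 9 estimated reads in 11 tumours, at most 0.338 TPM, and 41 reads (1.64 TPM) in miR-142-5p tumour 3. A count of 0 allows up to 3 reads in a library, and this limit covers counting error only. The reductases that act after this step, Ptgr1 and Ptgr2, had 16.1 to 22.6 and 21.9 to 31.9 TPM.

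On the leukotriene branch, Alox5ap exceeded Alox5 in every tumour. Alox5ap (chr5:149264767-149288153, plus strand), the protein that presents arachidonic acid to 5-lipoxygenase, had normalised counts of 797, 575 and 553 in ctrl, 951, 570.2 and 603 with miR-142-5p, 876, 711 and 876 with miR-183-5p, and 643, 789 and 991 with miR-222-3p. All groups overlapped with ctrl, whose tumour 1 was higher than its other two. The log2 fold changes against ctrl were 0.14, 0.36 and 0.33 (each SE 0.24), with upper 95% limits of 0.60, 0.82 and 0.79.
Alox5 (chr6:116410077-116461178, minus strand), the 5-lipoxygenase, had 138, 42.5 and 56.3 normalised counts in ctrl, 81.9, 106 and 71.6 with miR-142-5p, 64.0, 71.0 and 76.2 with miR-183-5p, and 71.8, 34.8 and 93.8 with miR-222-3p. By normalised count, ctrl tumour 1 was the highest of all, and the spread within ctrl covered the miR-142-5p and miR-183-5p tumours. Ctrl tumour 1 had 68 estimated reads, between ctrl tumours 2 and 3 (59 and 81). Normalised counts also take effective length into account. In coding transcripts, ctrl tumour 1 had the lowest level of the ctrl tumours (0.718 TPM, beside 1.36 and 1.90). In the miR-222-3p group, tumour 2 (34.8) was below every ctrl tumour. The log2 fold changes against ctrl were 0.17, -0.12 and -0.19 (each SE 0.44), with 95% intervals from -0.70 to 1.04, from -0.995 to 0.75 and from -1.07 to 0.68. Differences approaching 1 log2 unit, higher with miR-142-5p and lower with miR-183-5p or miR-222-3p, thus lay within these intervals. On coding transcripts, the Alox5ap level was between 17.2 and 84.5 times that of Alox5 in the same tumour.

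Over the 9 tested members, the 4 groups were also ordered by mean normalised count. Of the 27 pairs of neighbours in these orders, 0 had an adjusted p below 0.05 in DESeq2 and 1 had an unadjusted p below 0.05. That pair was miR-142-5p and miR-222-3p for Ptger2 (log2 fold change of miR-222-3p versus miR-142-5p -0.45, SE 0.23). The miR-183-5p group was the highest for Ptgs2, Ptges and Alox5ap and the lowest for Ptgs1, Tbxas1, Ptger2 and Ptger4, by normalised counts over all transcripts. On coding transcripts, the mean of Ptgs1 was lowest in ctrl (47.8 TPM, 48.1 TPM with miR-183-5p) and that of Alox5ap was highest with miR-222-3p (52.2 TPM, 51.3 TPM with miR-183-5p).

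Of the 54 other pathway genes, 38 passed the count filter and 0 of them were called by DESeq2 in any of the 6 comparisons or across the 4 groups. At an unadjusted p below 0.05, 1 was lower in miR-142-5p versus ctrl (3.58% of all genes differed), 1 was lower in miR-183-5p versus ctrl (3.21%) and 0 differed in miR-222-3p versus ctrl (2.31%). The first was Ltb4r1, the high-affinity leukotriene B4 receptor of neutrophils and other myeloid cells. It had 70.9, 48.0 and 53.5 normalised counts with miR-142-5p and 89.1, 79.8 and 107 in ctrl, without overlap (log2 -0.68, SE 0.34). In miR-183-5p versus miR-142-5p it differed by 0.93 (SE 0.34, adjusted p of 0.314). The second was Hpgds, with 387, 359 and 150 normalised counts with miR-183-5p and 538, 379 and 645 in ctrl (log2 -0.80, SE 0.38).
The next lowest p-values belonged to Ltc4s in miR-142-5p versus ctrl (log2 0.87, SE 0.52), to Cysltr1, a receptor for cysteinyl leukotrienes, in miR-183-5p versus ctrl (log2 -0.41, SE 0.23), and to Dpep2 and Pla2g5 in miR-222-3p versus ctrl (log2 0.38, SE 0.20, and -1.11, SE 0.75). Dpep2 cleaves leukotriene D4, and Pla2g5 is a secreted phospholipase. None of these 4 reached an unadjusted p of 0.05 in the comparison named. Between miR-183-5p and miR-142-5p, 4 of the 38 genes had an unadjusted p below 0.05 (7.94% of all genes), namely Ltb4r1, higher, and Hpgds, Ltc4s and Ggt5, lower (log2 -0.95, -1.07 and -0.54). The median log2 fold change of the 38 genes was 0.03, -0.01 and 0.02 against ctrl.

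Markers of cell types varied between the tumours together with some members. The carcinoma and epithelial genes Krt18, Krt8 and Epcam were high in all 12 tumours, at 632 to 1046, 481 to 732 and 69.7 to 125 TPM. Of the 6 genes in that list, Krt5 never reached 1 TPM. A pair of libraries stood apart by genes of other tissue. In miR-142-5p tumour 3, the B cell genes Cd79a and Ms4a1 had 131 and 57.7 TPM, and they had at most 0.960 and 0.329 TPM elsewhere. In miR-183-5p tumour 3, the skeletal muscle genes Acta1 and Ckm had 79.9 and 55.5 TPM, against at most 0.965 and 0.621 TPM elsewhere. Without both tumours, 0 members were called in any comparison. The difference in Ptgs2 between miR-183-5p and miR-142-5p was then 0.87, that in Ptger2 was -0.76 and that in Ptger4 was -0.45. That in Ptges was 0.15, beside 0.25 with all tumours. For Tbxas1 it lay between -0.66 and -0.28 over all fits with tumours left out, beside -0.49 with all tumours.

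Ptgs2 followed the neutrophil markers over the 12 tumours. Pearson's r of log2 values was 0.91 with their summed level (Spearman's rho 0.97, n = 12), 0.86 after the group means were removed, and 0.97 without the 2 tumours farthest from the median of Ptgs2. The points share their libraries, so r is a description. Ptgs2 also had r 0.85 with the hypoxia and glycolysis markers and 0.79 with the platelet and megakaryocyte markers. All 9 neutrophil genes reached 1 TPM, and S100a9, S100a8 and Retnlg held 96.4% of the sum. The summed level was 1060 to 2039 TPM in ctrl, 1035 to 1670 with miR-142-5p, 1891 to 3061 with miR-183-5p and 891 to 2024 with miR-222-3p. The miR-183-5p tumours were thus above the miR-142-5p tumours for the neutrophil sum as for Ptgs2, and the part of these markers in the Ptgs2 difference was not tested. In that comparison, 8 of the 9 neutrophil genes had a log2 fold change above 0 (median 0.62). In miR-183-5p versus ctrl, 7 did (median 0.19). The hypoxia and glycolysis sum was 4850 to 5617 TPM with miR-183-5p and 4039 to 4411 in ctrl. It was 3157 to 4942 TPM with miR-142-5p and 3547 to 4391 with miR-222-3p. All 8 genes of that list had a log2 fold change above 0 in miR-183-5p versus miR-142-5p (median 0.44) and versus ctrl (median 0.28). Their part in the Ptgs2 levels was not tested either. The genes most like Ptgs2 were Clec4d, a C-type lectin of myeloid cells, and Rhov, a small GTPase (r 0.94 each).

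Tbxas1 followed the macrophage and monocyte markers (r 0.85, rho 0.82, n = 12). It was 0.86 after the group means were removed and 0.61 without the 2 farthest tumours. All 10 genes of that list reached 1 TPM, and C1qa, C1qb and C1qc held 82.9% of the sum. The sum was 1794 to 2238 TPM in ctrl, 1914 to 2783 with miR-142-5p, 1198 to 1776 with miR-183-5p and 1584 to 2358 with miR-222-3p. The miR-183-5p tumours were below ctrl for this sum as they were for Tbxas1, and its part in the Tbxas1 difference was not tested. In that comparison, 2 of the 10 genes of the list had a log2 fold change above 0 (median -0.40). Tbxas1 ran against the fibroblast markers (r -0.79). Its nearest genes were Map3k15 and Fam172a (r 0.94 each).

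Ptger4 followed the dendritic cell markers (r 0.82, 0.56 without the 2 farthest tumours) and the T, NK and B cell markers (r 0.80, rho 0.62, n = 12, and 0.75 after the group means were removed). Without the 2 farthest tumours, the last r was 0.39. With the endothelial markers r was 0.73 (rho 0.79, 0.74 after the group means were removed, 0.68 without the 2 farthest tumours). Ptger4 ran against the carcinoma and epithelial markers (r -0.63, -0.88 after the group means were removed, -0.38 without the 2 farthest tumours). It also ran against the mast cell and basophil list (r -0.67). All 9 genes of the T, NK and B cell list reached 1 TPM, and Nkg7, Cd3g and Cd8a held 60.2% of the sum. The sum was 48.5 to 69.0 TPM in ctrl, 54.1 to 431 with miR-142-5p, 28.6 to 68.6 with miR-183-5p and 43.9 to 86.6 with miR-222-3p. The 431 TPM belonged to miR-142-5p tumour 3, so the relation rested in part on that tumour, which also held the highest Ptger4 value. The part of these cells in the Ptger4 values was not tested. Its nearest genes were Rab37 (r 0.93) and Icos, a costimulatory receptor of T cells (r 0.92).

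**Figure D5:**
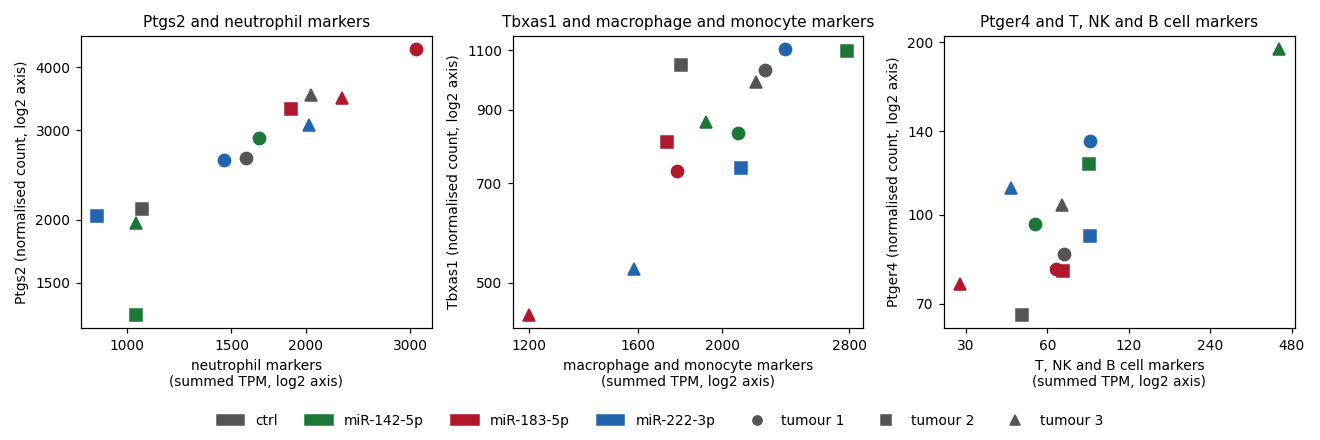
Normalised count of Ptgs2, Tbxas1 and Ptger4 against the summed TPM of neutrophil, macrophage and monocyte, and T, NK and B cell markers, on log2 axes, with 1 point for each of the 12 tumours. Ptgs2 and the neutrophil sum lie near a line, whereas in the panel of Ptger4 the point of miR-142-5p tumour 3 lies far to the right.

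The other members had no marker list with an r above 0.8. Ptger2 had r -0.73 with the hypoxia and glycolysis markers and -0.68 with the neutrophil markers. It had r 0.67 with the macrophage sum and 0.63 with the T, NK and B cell sum, and Ptgs1 had r 0.68 with the macrophage sum. Alox5ap and Ptges had r 0.76 and 0.69 with the mast cell and basophil list. In that list Cma1, Ms4a2 and Fcer1a never reached 1 TPM, and Mcpt8, a basophil protease with 1.79 to 42.2 TPM, carried most of the sum. In miR-183-5p versus ctrl, the sum was 16.7 to 43.8 and 9.66 to 16.9 TPM, while 1 of the 5 tested genes of the list had a log2 fold change above 0 (median -0.24). Between members, Ptgs1 and Tbxas1 had r 0.68 (0.54 after the group means were removed) and Ptger2 and Ptger4 had r 0.66 (0.04). Ptgs2 and Ptger2 had r -0.73 (-0.35), and Tbxas1 and Alox5ap had r -0.72 (-0.60). The nearest genes of the remaining members were Tbc1d23 for Pla2g4a, Fam174a and Srrt for Ptgs1, F2r and Nedd4l for Ptges, Rnf167 and Brat1 for Ptger2, Ninj1 and Egfl8 for Alox5, and Map6 and Commd2 for Alox5ap. Their r was between 0.85 and 0.94. They were taken from the highest r of 12462 genes compared.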

How the data were processed

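The authors quantified paired-end reads of stranded mRNA libraries with Salmon on Ensembl transcripts, whose release differs between the sources. The deposited tables hold, per transcript, an expected count (estimated reads, not whole), a TPM and an effective length. Transcripts (118783) were matched without version to GENCODE M21 on GRCm38 (98.25% matched), and counts and TPM were summed per gene. Unmatched transcripts held at most 0.6714% of the reads of a library. Libraries held 20285968 to 27021401 estimated reads, and the limit given for a count of 0 covers counting error only.

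Summed expected counts were rounded. A gene was kept when 3 or more libraries each held 10 or more of its reads (15485 genes). DESeq2 1.42.0 was fitted to all 12 libraries with group as the only factor and effective length as offset, with Wald tests and a likelihood-ratio test. P-values were adjusted by Benjamini-Hochberg over all genes tested (15438 with a p) at 0.05. Fold changes are unshrunken and intervals are Wald 95% intervals. Tools were R 4.3.3, edgeR 4.0.16, limma 3.58.1, Python 3.11.15, numpy 2.4.6, pandas 2.3.3, scipy 1.17.1 and matplotlib 3.10.9. On simulated data for miR-142-5p versus ctrl (15344 genes), 80 of 100 genes changed 2-fold and 97 of 100 changed 4-fold were called in the right direction. The changed genes were drawn from those with a mean normalised count of at least 50. Counts were drawn for each gene separately, so differences in cell make-up shared by many genes were not simulated. In addition, 34 unchanged genes were called, 16.1% of calls, so the adjusted p was not fully held at its nominal level.

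The members, the pathway list and the marker lists were chosen with earlier results of these data known. Members were all named, as were other pathway genes called in any comparison and the 2 with the lowest unadjusted p in each comparison with ctrl. The levels of other genes of a described step, the 2 genes with the highest r for each member (mean normalised count of at least 50) and the 3 most abundant genes of a marker list were named too. Ms4a1, Cd79a, Acta1, Ckm and Pla2g2d were named after their values were seen. Each library is a separate tumour, and p-values measure only the spread between these tumours. For 12 pairs of libraries from the same group, chi-square over degrees of freedom was 13.1 to 56.0, so none was a copy of another. Correlations used log2(normalised count + 1), and of marker sums log2(summed TPM + 1), and have no test. limma was run on log2(TPM + 1) and log2(TPM + 0.1). The symbol Prxl2b was not matched and was left out. Values of some genes that the rule names are not reported here.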

Additional observations from a re-analysis of the deposited data

How the results depend on the processing

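Counts of called members and of called pathway genes, and the log2 fold changes of the members against ctrl and between miR-183-5p and miR-142-5p, were recomputed under edgeR, TMM factors, no count filter, at least 50 reads in every library, no length offset, only the 2 groups compared, limma with both pseudocounts, a threshold of 0.1 and each tumour left out. Leaving out miR-142-5p tumour 3 and miR-183-5p tumour 3 together, and summing only protein-coding transcripts, were added after seeing the data. Members called in miR-183-5p versus miR-142-5p numbered 0 to 2 when tumours were left out, and members called across the 4 groups 0 to 1. Without miR-142-5p tumour 1 the calls were Ptgs2 and Ptger4, and Ptgs2 across the groups. Over all genes, this omission raised the calls across the 4 groups from 9 to 240. It raised them from 1 to 76 in miR-142-5p versus ctrl and from 6 to 75 in miR-222-3p versus miR-142-5p. Without miR-142-5p tumour 2, 68 genes were called across the 4 groups. Other pathway genes called numbered 0 to 1 in miR-142-5p versus ctrl, in miR-183-5p versus miR-142-5p, in miR-222-3p versus miR-142-5p and across the 4 groups, where the call was Pla2g2d without miR-142-5p tumour 1 or, across the groups, without tumour 2. The replicate block called 1 member, Ptgs2, in miR-183-5p versus miR-142-5p (log2 0.91, adjusted p 0.0334). Over all genes this comparison had 8 calls, 70 with only its groups fitted, 0 to 414 with a tumour left out (highest without miR-142-5p tumour 1, lowest without miR-183-5p tumour 3), and 0 with edgeR or limma. The numbers did not pair the tumours: the residuals of 18 pairs with the same number had r between -0.56 and 0.35, and the block changed no other call of a member or listed pathway gene.

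Against ctrl, some signs turned with a left-out tumour, all for differences under 0.2 log2 units in size. For these, the ranges over left-out tumours were, in miR-142-5p versus ctrl, -0.092 to 0.17 for Ptgs1, -0.012 to 0.13 for Ptges, -0.14 to 0.80 for Alox5 and -0.13 to 0.33 for Alox5ap. In miR-183-5p versus ctrl they were -0.11 to 0.064 for Pla2g4a, -0.27 to 0.050 for Ptger4 and -0.43 to 0.51 for Alox5. In miR-222-3p versus ctrl they were -0.26 to 0.12 for Ptgs2 and -0.51 to 0.44 for Alox5. With no length offset Alox5ap was -0.014 in miR-142-5p versus ctrl. With coding transcripts only, Ptgs1 was 0.020 in miR-183-5p versus ctrl and 0.17 in miR-222-3p versus ctrl, and Alox5 was -0.13 in miR-142-5p versus ctrl and 0.016 in miR-183-5p versus miR-142-5p. The cause was not tested. With 3 tumours a group, intervals of the low genes Alox5, Ptger2 and Ptger4 stay wide.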

Other observations

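Pla2g2d, a secreted phospholipase A2 of dendritic cells and macrophages in lymphoid tissue, had 585 normalised counts (24.6 TPM) in miR-142-5p tumour 3 and between 10.5 and 31.1 in the other 11 tumours. It was named after its values were seen. The same tumour held the highest Ptger4 level, the highest Hpgd level (1.64 TPM) and the B cell genes given above, and its dendritic cell markers summed to 26.7 TPM, above the other 11 tumours.

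The libraries also fell apart by the mitochondrial pseudogene Gm28661. Of the reads of Gm28661 and mt-Co2 together, it held at most 0.324% in all tumours of the miR-222-3p group and in miR-183-5p tumour 3, and at least 7.13% in the other 8 tumours. This split covered the whole miR-222-3p group, so for comparisons with miR-222-3p it cannot be told apart from the treatment.

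The 3′ UTR of Ptgs2 (2445 bases) held 14 copies of ATTTA on the transcript strand, the core of AU-rich elements, more than that of any other member. At least 10 copies were found in 6.33% of tested genes. Ptger2 held 6 copies, Ptger4 held 5, and Ptgs1, Ptges and Tbxas1 held 0. A copy is a description of the letters, and longer UTRs hold more of them.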
